A study of Mus musculus with 5 samples.

Results

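The C/EBP transcription factors Cebpa, Cebpb, Cebpd, Cebpe, Cebpg and Ddit3 were followed in whole mouse colon after stimulation of the IL-11 receptor. They were chosen by name, as the genes of 1 family, and every probe assigned to them was taken. All 6 passed the filter on dim probes, measured by 7 of the 56605 probes of the array, and they make up 6 of the 32917 genes and unnamed transcripts that were tested. The treated mice received an intravenous injection of NT-3N, an IL-11 receptor agonist made by mutating human IL-11, and their colons were removed after 3 hr (3 mice). The control group held 2 mice. They were untreated according to the study's methods, and no vehicle injection is described for them, so the effects of the agonist and of the injection cannot be told apart. All were wild-type mice, given in the labels as C57BL/B6, and young adults by the age that the study gives. One Agilent 1-colour array was hybridised per mouse, and all 5 arrays lay on 1 slide.

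C/EBP proteins belong to the basic leucine zipper (bZIP) factors, which bind DNA as pairs held together by a zipper of leucines. Cebpb and Cebpd are classical factors of the acute phase response, in which cytokines that signal through gp130, such as IL-6 and IL-11, act on gene transcription through STAT3. Cebpa drives the differentiation of fat cells, hepatocytes and granulocytes, and Cebpe acts late in granulocyte maturation. Cebpg lacks a conventional activation domain. Both Cebpg and Ddit3, also called CHOP, can act as partners that alter or block the activity of the other members. Ddit3 is also a target of the unfolded protein response.

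The stretches of sequence just upstream of 3 members whose groups of arrays did not overlap are shown here, so that their promoters can be compared. They were read from a table of RefSeq promoters (GRCm38.p6), in which 4 of the 6 members were matched, Cebpa, Cebpb, Cebpg and Ddit3. The windows end at the base before the transcription start and lie at chr2:167688665-167688914 on the + strand (Cebpb), chr7:35056567-35056816 on the - strand (Cebpg) and chr10:127290543-127290792 on the + strand (Ddit3). They are written 5′ to 3′ on the gene's strand, and capitals mark the CRE half-site TGACG, a core of CREB and ATF sites, in Cebpb, and the CCAAT box, bound by NF-Y, in Cebpg and Ddit3, on either strand.
Cebpb: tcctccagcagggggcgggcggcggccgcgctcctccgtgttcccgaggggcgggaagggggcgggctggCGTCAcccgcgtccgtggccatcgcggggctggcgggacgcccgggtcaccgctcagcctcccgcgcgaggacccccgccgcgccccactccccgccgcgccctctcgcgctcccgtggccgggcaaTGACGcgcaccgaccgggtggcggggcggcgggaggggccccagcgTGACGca
Cebpg: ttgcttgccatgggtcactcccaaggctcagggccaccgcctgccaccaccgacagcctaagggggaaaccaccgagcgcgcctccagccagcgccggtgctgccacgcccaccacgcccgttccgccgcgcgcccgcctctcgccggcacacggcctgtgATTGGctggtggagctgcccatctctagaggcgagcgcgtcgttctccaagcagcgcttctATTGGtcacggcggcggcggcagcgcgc
Ddit3: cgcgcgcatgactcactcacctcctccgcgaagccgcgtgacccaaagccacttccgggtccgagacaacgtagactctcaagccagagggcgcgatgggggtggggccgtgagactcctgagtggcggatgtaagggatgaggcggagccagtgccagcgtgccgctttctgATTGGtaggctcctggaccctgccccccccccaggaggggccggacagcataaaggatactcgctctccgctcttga
The Cebpb window held 3 CRE half-sites, which began at positions -180, -53 and -7 from the transcription start. The Cebpg window held 2 CCAAT boxes, at -89 and -28, and the Ddit3 window held 1, at -77. Neither motif was matched in the Cebpa window, which lies at chr7:35119043-35119292 on the + strand. Of 32841 RefSeq windows of the same 250 bases, 17.8% held TGACG and 33.9% held CCAAT. These letters were chosen after the windows had been read. None of the 4 windows held the STAT site TTCNNNGAA, the full CRE TGACGTCA, the C/EBP site TTGCNNAA, the C/EBP-ATF composite TGATGNAA, the kappaB site (GGGA and TTNCC with 1 base between) or the endoplasmic reticulum stress element (CCAAT and CCACG with 9 bases between). These were found in 7.02%, 1.55%, 9.57%, 3.45%, 0.98% and 0.113% of all windows. The full CRE contains the half-site, and the stress element contains a CCAAT box. Only exact matches were counted in these searches. In the Ddit3 window the CCAAT box at -77 is followed, on its own strand and after 9 bases, by GCACG, which differs from CCACG by 1 base.

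The arrays were alike in the share of probes detected. Between 70.6% and 73.1% of probes were well above background, and no probe was saturated. The pairwise correlations of log2 values over all features lay between 0.98 and 0.992. Control 1 stood furthest apart, at 0.984 with Control 2 and 0.980 to 0.982 with the treated mice. Control 2 correlated with the treated mice at 0.986 to 0.989. Control 1 also had 184 outlier spots, against 69 to 118 on the other arrays. Some cell type markers differed between mice, and their part in the values of the genes below was not tested. Fat cell markers differed between mice within both groups, and B cell markers were low in Control 2, with a summed linear signal of 1138 against 4382 to 5182 on the other arrays. Markers of the colon itself were present on every array, among them the epithelial genes Epcam, Cdh1 and Vil1 and the smooth muscle genes Myh11, Acta2 and Cnn1.

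Across the family, Cebpd rose 3.32-fold and was the only member that passed the test. Cebpb was 1.55-fold higher on average, whereas Cebpg, Ddit3, Cebpa and Cebpe had lower means, and none of these 5 differences passed the adjusted threshold. The values of Cebpd and Cebpb lay above both controls in 3 of 3 treated mice, and those of Cebpg and Ddit3 lay below both controls in 3 of 3. Of all 32917 features, 0.125% passed an adjusted p of 0.05 with higher signal in NT-3N (limma) and 0.0182% with lower signal (0.143% in all). Groups that did not overlap were common on these few arrays, with 13.5% of all features higher and 14.8% lower (28.4% in all), beside 2 and 2 of the 6 members. Unadjusted p-values under 0.05 were found for 4.95% of features with higher and 4.67% with lower signal (9.62% in all), beside 2 and 2 members. The median log2 fold change was -0.16 over the 6 members and -0.02 over all features.

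**Figure D1:**
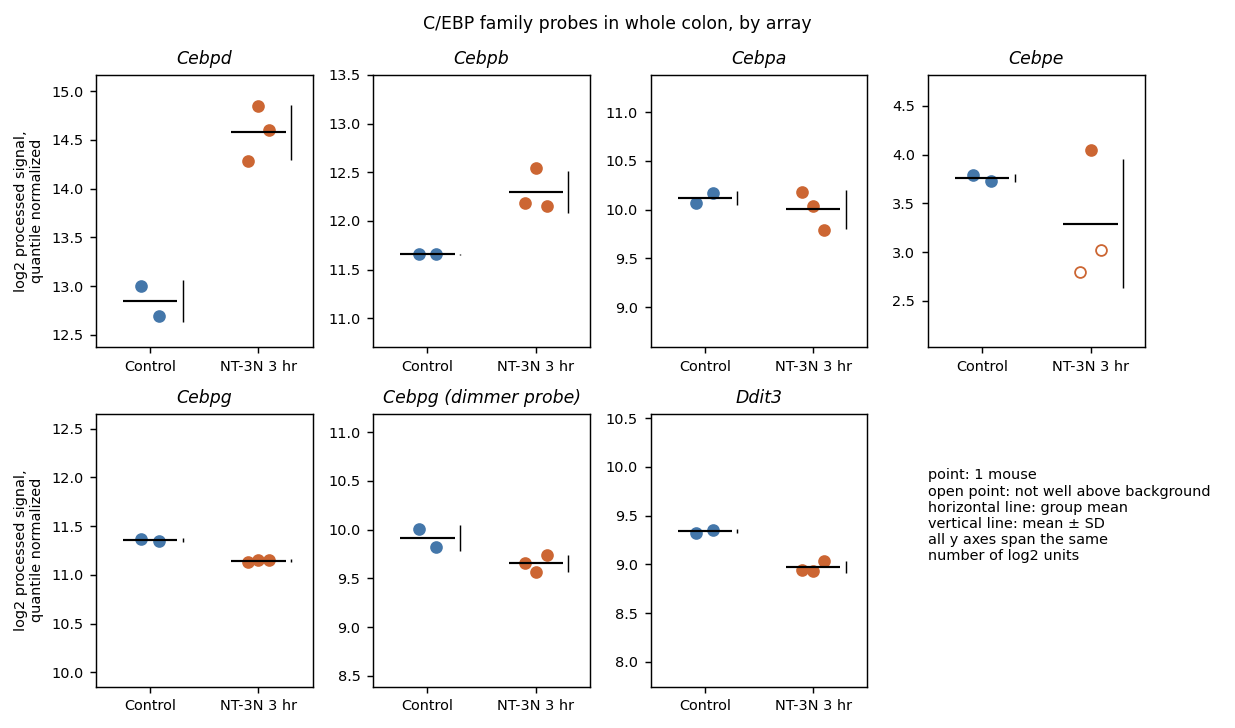
Quantile-normalized log2 processed signal (y axis) of the 7 C/EBP family probes in the 2 Control and 3 NT-3N mice (x axis), with 1 point per mouse, an open point where the probe was not well above background, and lines for the group mean and SD. Cebpd (12.69 to 13.00 in Control, 14.28 to 14.85 in NT-3N) shows the widest gap between the groups, Cebpb a smaller one in the same direction, and both Cebpg probes and Ddit3 a small one in the opposite direction.

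Cebpd encodes C/EBP delta, a factor that is induced early in inflammation. Its log2 signal was 13.00 and 12.69 in the 2 controls, and 14.28, 14.85 and 14.60 in NT-3N mice 1, 2 and 3. On the linear scale of the scanner, before normalization, these were processed signals of 7258 and 6860 against 17581, 33426 and 26846. Every treated mouse thus lay above both controls, and the gap between the groups was wider than the range within either. The group means were 12.85 ± 0.22 (SD, n = 2) and 14.58 ± 0.29 (SD, n = 3). This is a difference of 1.73 log2 units (standard error 0.18), with a 95% confidence interval from 1.30 to 2.16, which is 2.46-fold to 4.48-fold. The limma fit over all features gave a p of 4.92e-05 before and 0.0426 after adjustment, which placed Cebpd at rank 38 of all features by p. The call was close to the threshold and was lost, with no change in the estimate, when dim probes were kept (limma adjusted p = 0.158) or when the variance was not allowed to depend on signal (0.175). It was also lost without Control 1 (0.0883), Control 2 (0.103), NT-3N 2 (0.102) or NT-3N 3 (0.24), and kept without NT-3N 1 (0.0195), with log2 fold changes between 1.58 and 1.88.

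Cebpb encodes C/EBP beta, first described as a nuclear factor for IL-6. Its log2 signal was 11.66 in both controls, and 12.18, 12.55 and 12.16 in NT-3N mice 1, 2 and 3. The treated mice were all higher, and they spread over 0.39 log2 units, whereas the controls differed by 0.0063. The groups differed by 0.64 log2 units (standard error 0.14, 95% confidence interval from 0.31 to 0.96). limma gave a p of 0.00285 before and 0.225 after adjustment, so that the difference did not pass the threshold over all features. The estimate stayed between 0.51 and 0.72 in the 18 other analyses that were run, the unadjusted p stayed under 0.05 in all 18, and the lowest adjusted p among them was 0.0961.

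Cebpd exceeded its control mean by 1.43, 2.00 and 1.76 log2 units in the 3 treated mice, and Cebpb exceeded its own by 0.52, 0.89 and 0.50. NT-3N 2 was highest for both genes. The change of Cebpd was larger than that of Cebpb by 1.09 log2 units, with differences of 0.91, 1.11 and 1.26 in the 3 mice. It was also larger than that of Cebpa by 1.85, of Cebpg by 1.94 and of Ddit3 by 2.10 log2 units. No difference is given for Cebpe, which was well above background in 1 of the 3 treated mice. For each of the 5 pairs that were computed the exact two-sided permutation test over the 5 arrays gave p = 0.1, also after adjustment over the pairs. This is the smallest value that this number of mice allows. Cebpd was the reference of every pair and is the member with the largest change in these same data, so the test adds no support to this order.

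Ddit3 encodes CHOP, a partner that keeps other C/EBP proteins from many of their sites. Its log2 signal was 9.32 and 9.36 in the controls, and 8.95, 8.93 and 9.04 in NT-3N mice 1, 2 and 3. All treated mice lay below both controls, and the spread within each group was small. The log2 fold change was -0.37 (95% confidence interval from -0.62 to -0.12), which is 1.29-fold lower, with a limma p of 0.0103 before and 0.35 after adjustment. The estimate lay between -0.40 and -0.31 in the 18 other analyses, and the adjusted p passed the threshold in none of them.

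Cebpg encodes C/EBP gamma, a widely expressed partner of C/EBP and ATF proteins, and was the only member with a second probe. Its brighter probe gave log2 signals of 11.37 and 11.35 in the controls, and 11.13, 11.16 and 11.15 in the treated mice. Its dimmer probe gave 10.01 and 9.82 in the controls, and 9.66, 9.57 and 9.74 in the treated mice. On both probes every treated mouse lay below both controls. The log2 fold change was -0.21 on the brighter probe (95% confidence interval from -0.41 to -0.016), with a limma p of 0.0379 before and 0.489 after adjustment. In the 18 other analyses the estimate lay between -0.24 and -0.17. The unadjusted p was under 0.05 in 8 of the 18, and the adjusted p passed the threshold in none. When every probe was tested on its own, the dimmer probe differed by -0.26 log2 units, with a limma p of 0.0559 before and 0.536 after adjustment.

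Cebpa encodes C/EBP alpha, which is found in fat cells, in myeloid cells and in some epithelia. Its log2 signal was 10.07 and 10.17 in the controls, and 10.18, 10.04 and 9.79 in NT-3N mice 1, 2 and 3. The groups overlapped, with the highest value in NT-3N 1 and the lowest in NT-3N 3. The log2 fold change was -0.12 (95% confidence interval from -0.45 to 0.22), with an adjusted p of 0.813 in limma. With 1 array left out it was -0.17 without Control 1, -0.067 without Control 2, -0.21 without NT-3N 1 and -0.010 without NT-3N 3. Beside it, 13 fat cell genes and C/EBP targets of fat cells had a summed linear signal of 48456 and 29391 in the controls and 44820, 27006 and 20896 in the treated mice. The fat hormone gene Adipoq had log2 signals of 9.26 and 5.21 in the controls and 8.76, 7.54 and 4.32 in the treated mice. Plin1, which coats lipid droplets, had 5.78 and 1.50, and 5.33, 4.46 and 1.61, and was well above background on 3 of the 5 arrays. Cidec, which enlarges lipid droplets, had 12.75 and 12.21, and 12.42, 11.36 and 10.84. NT-3N 3 was lowest for Adipoq, Cidec and Cebpa alike, whereas Control 2 was low for Adipoq and Plin1 and not for Cebpa. In whole tissue, fewer cells of a type and less RNA per cell cannot be told apart, and the part of fat cells in the Cebpa values was not tested.

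Cebpe encodes C/EBP epsilon, which is largely restricted to developing granulocytes, and was near the limit of detection. Its log2 signal was 3.79 and 3.73 in the controls, and 2.80, 4.04 and 3.03 in NT-3N mice 1, 2 and 3. It was well above background in both controls and, among the treated mice, in NT-3N 2, the mouse with the highest value. The groups overlapped. The log2 fold change was -0.47 with a wide 95% confidence interval from -1.61 to 0.67 and an adjusted p of 0.779 in limma. The estimate rests in part on values not well above background. It was -0.84 without NT-3N 2 and -0.23 without NT-3N 1, and after normexp correction of the background it was -0.036.

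**Figure D2:**
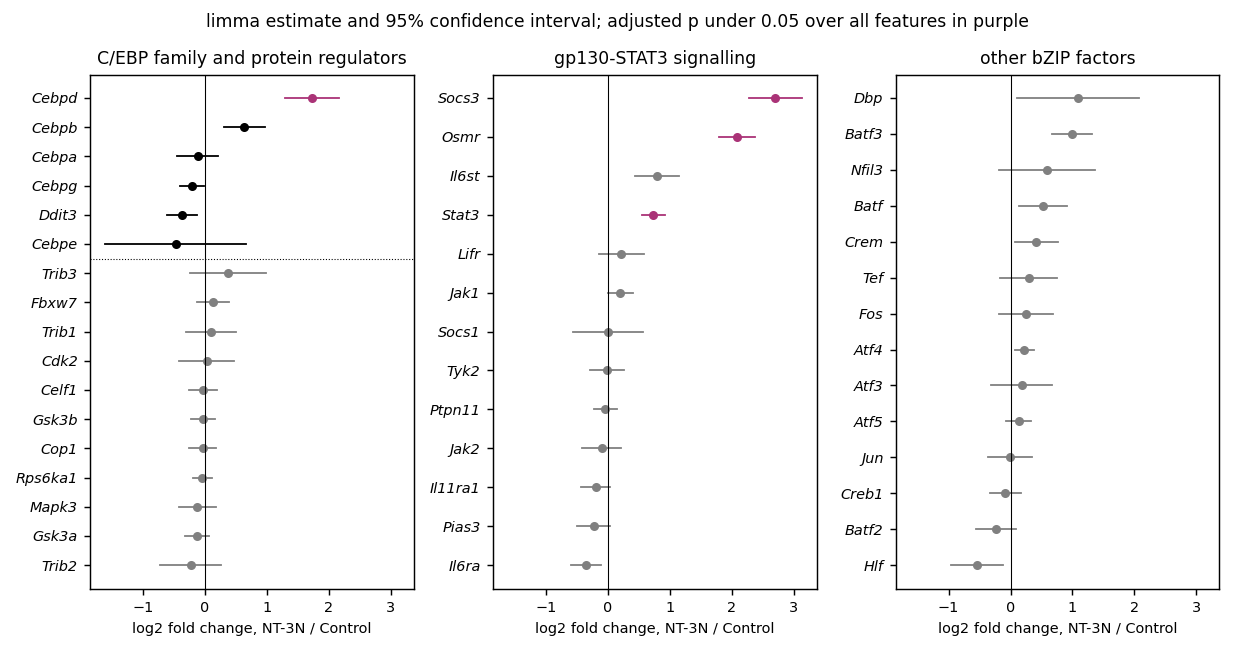
limma log2 fold changes (x axis) with 95% confidence intervals for the 6 C/EBP genes and 11 regulators of C/EBP proteins (left, separated by a dotted line), 13 genes of gp130-STAT3 signalling (middle) and 14 other bZIP factors (right). Purple marks an adjusted p under 0.05 over all features, reached by Cebpd, Socs3, Osmr and Stat3.

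Upstream of Cebpb and Cebpd lie the receptors, kinases and STAT factors of gp130 signalling, and 13 such genes were measured. Of these, 3 rose and none fell in limma, while 5 had an unadjusted p under 0.05 with higher and 1 with lower signal, and the median log2 fold change was 0.0068 (from -0.0061 without NT-3N 2 to 0.17 without Control 2). Socs3, the feedback inhibitor of gp130 signalling, rose by 2.71 log2 units (limma adjusted p = 0.00875). Osmr, the oncostatin M receptor, rose by 2.09 (0.00574), and the transcription factor Stat3 rose by 0.74 (0.0434). Without NT-3N 3 these calls were lost (limma adjusted p = 0.12, 0.0789 and 0.196), as they were without NT-3N 2 (0.063, 0.0518 and 0.187), and that of Stat3 was lost without either control too (0.182 and 0.165). With dim probes kept, or without the intensity trend, none of the 3 passed, at limma adjusted p-values of 0.0913 and 0.0725 for Socs3, 0.0718 and 0.0569 for Osmr, and 0.109 and 0.183 for Stat3, which also missed the threshold when its probes were averaged (0.0567). Il6st, which encodes gp130 itself, had a log2 fold change of 0.80 (limma adjusted p = 0.172), and Il6ra, the IL-6 receptor, one of -0.35 (0.35), which was -0.064 when its probes were averaged. The specific receptor of the agonist, Il11ra1, had log2 signals of 12.94 and 12.98 in the controls and of 12.63 to 12.88 in the treated mice, with a limma adjusted p of 0.591.

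Genes whose products act on C/EBP proteins after translation or on their messages moved little. The list of 11 included Trib1, Trib2 and Cop1, which direct C/EBP alpha to degradation, their relative Trib3, and the ubiquitin ligase gene Fbxw7. It also held kinases that phosphorylate C/EBP proteins (Gsk3a, Gsk3b, Mapk3, Rps6ka1, Cdk2) and Celf1, which binds Cebpb mRNA. None passed an adjusted or an unadjusted p of 0.05 in limma, and the median log2 fold change was -0.03 (from -0.064 without Control 1 to -0.020 without NT-3N 3). Their summed linear signal was 93707 and 93351 in the controls and between 87727 and 93164 in the treated mice.

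Among 14 other bZIP factors, some of which pair with C/EBP proteins or share their sites, none passed the adjusted threshold in limma, while 5 had an unadjusted p under 0.05 with higher signal and 1 with lower signal. The median log2 fold change was 0.24, and it was 0.10 without Control 2. Batf3, an AP-1 type factor of dendritic cells, had log2 signals of 7.72 and 7.46 in the controls and 8.50, 8.66 and 8.58 in the treated mice. Its log2 fold change was 0.99 with a limma adjusted p of 0.0783. Dbp, a circadian factor, had signals of 14.04 and 12.50 in the controls and 14.50, 14.19 and 14.38 in the treated mice, with a log2 fold change of 1.09 and a limma adjusted p of 0.481. The low value of Control 2 set much of that difference, as the log2 fold change was 0.32 without it and 1.86 without Control 1. Hlf, a relative of Dbp, had a log2 fold change of -0.54 (limma adjusted p = 0.426), which was -0.28 without Control 1 and -0.80 without Control 2.

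The genes that C/EBP beta and delta are best known to activate are those of the acute phase response, and 18 of the 25 on this list were bright enough to be tested. Of the 17 that were well above background in at least 1 mouse of each group, 2 rose and none fell in limma, and 6 had an unadjusted p under 0.05 with higher and 0 with lower signal. Their median log2 fold change was 0.33 (0.50 without Control 1 and 0.073 without Control 2). Serpina3n, a secreted protease inhibitor, had log2 signals of 7.36 and 7.32 in the controls and 10.53 to 10.83 in the treated mice. It rose by 3.33 log2 units (limma adjusted p = 0.00266, and 0.0643 without NT-3N 3). Lbp, the lipopolysaccharide-binding protein, rose by 1.80 log2 units, from 6.59 and 6.39 to between 8.24 and 8.33 (limma adjusted p = 0.012, and 0.0964 and 0.128 without NT-3N 2 and NT-3N 3). The call of Lbp was also lost with dim probes kept (limma adjusted p = 0.0718) and without the intensity trend (0.0569). Tnfaip6, a hyaluronan-binding protein, and Lcn2, which binds bacterial siderophores, each had a log2 fold change of 1.03, with limma adjusted p-values of 0.33 and 0.266. Il6, left out of these counts, was not well above background in either control and was in 2 of the 3 treated mice. The serum amyloid genes Saa1 and Saa2, close relatives whose probes may share transcripts, overlapped between the groups, at log2 signals of 16.41 to 16.84 in the controls and 16.11 to 16.74 in the treated mice. Over all 18 tested genes, Il6 among them, 12 had a positive and 6 a negative log2 fold change. Orm3, Crp, Fga, Fgb, Fgg, Ptx3 and Csf3 did not pass the filter on dim probes.

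A list of C/EBP targets and markers of fat cells, and a list of C/EBP targets of granulocytes and neutrophil markers, held no gene that passed the adjusted threshold. Of the 13 fat genes, 10 had a negative log2 fold change and the median was -0.23, but it was 0.082 without Control 1, -0.69 without Control 2, -0.60 without NT-3N 1 and 0.041 without NT-3N 3. Lpl, the lipoprotein lipase, had a log2 fold change of -0.59 (limma adjusted p = 0.474), and none of the other fat genes reached an unadjusted p of 0.05. Of 15 granulocyte genes, 11 were tested, and 8 were well above background in at least 1 mouse of each group. Of these 8, 0 had an unadjusted p under 0.05 with higher and 1 with lower signal in limma (Mpo, the myeloperoxidase, at -0.57 log2 units, adjusted p = 0.502), and the median log2 fold change was 0.11 (from -0.0021 without NT-3N 3 to 0.22 without NT-3N 1). The other 3 were S100a8, S100a9 and Mmp9, which passed the filter through the treated mice. S100a9 and S100a8, the subunits of the neutrophil protein calprotectin, were well above background in no control and in all 3 treated mice. Measured against the lowest signal of probes above background in the controls, S100a9 was 13.9-fold higher (limma adjusted p = 0.0619) and S100a8 3.61-fold higher (0.222). These p-values set the treated mice against controls without detected signal. The folds are not strict lower bounds, as a probe that is not well above background can be brighter than that lowest signal. Without NT-3N 1 the value for S100a9 was 8.46-fold. The sizes depended on the processing. Over 16 other analyses the log2 fold change lay between 1.72 and 6.03 for S100a9 and between 0.68 and 3.11 for S100a8. Mmp9, a gelatinase of neutrophil granules, was well above background in neither control and in 2 treated mice. Csf3r, the receptor for G-CSF, made up 98.4% to 99.1% of the summed signal of the list and had log2 signals of 16.25 and 16.23 in the controls and 15.96 to 16.23 in the treated mice. Whether that bright probe measures Csf3r alone was not tested. The whole list summed to 78750 and 77643 in the controls and to between 64643 and 78214 in the treated mice. Without Csf3r these sums were 750.1 and 662.4 against 1233, 699.7 and 801.3. Cxcr2, Ly6g, Retnlg and Ngp gave no tested value. The part of granulocytes in the Cebpe values was not tested.

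Beside the lower signal of Ddit3, 15 genes of the unfolded protein and amino acid stress responses were measured. None passed the adjusted threshold in limma, 1 had an unadjusted p under 0.05 in each direction, and the median log2 fold change was 0.02 (from -0.014 without Control 1 to 0.083 without NT-3N 1). Atf6, a sensor of unfolded proteins, had a log2 fold change of 0.30 and Sesn2, a stress-induced leucine sensor, one of -0.35, with limma adjusted p-values of 0.427 and 0.479. Atf4, the bZIP factor that activates Ddit3 in these responses, had log2 signals of 15.43 and 15.50 in the controls and 15.64 to 15.72 in the treated mice, with a limma adjusted p of 0.378. Ddit3 and Atf4 thus differed between the groups in opposite directions, neither past the adjusted threshold.

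**Figure D3:**
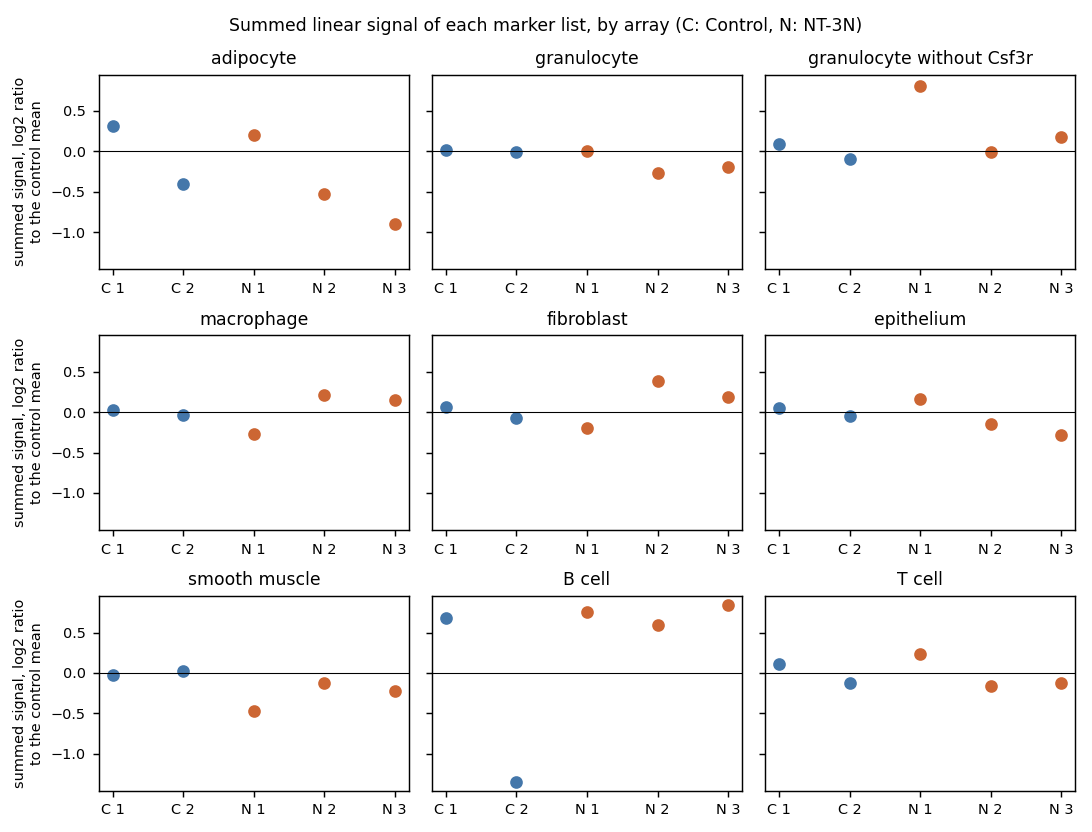
Summed linear signal of each marker list on the 5 arrays (x axis, C for Control and N for NT-3N), as a log2 ratio to the mean of the 2 controls (y axis), with 1 point per array. Adipocyte genes spread over both groups, B cell genes are low in Control 2, and smooth muscle genes are lower in all 3 treated mice, while the granulocyte list is shown with and without Csf3r, its brightest gene.

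Lists of markers for the cells that can express Cebpb and Cebpd showed no gene that passed the adjusted threshold in limma, while 1 macrophage and 2 fibroblast genes had an unadjusted p under 0.05, all with higher signal. The median log2 fold change was 0.0076 over the 10 macrophage genes and 0.0072 over the 9 fibroblast genes. These medians were 0.12 and 0.23 without NT-3N 1, and -0.07 and -0.034 without NT-3N 2, and the fibroblast median was 0.11 without Control 1 and -0.068 without Control 2. The summed macrophage signal was 15284 and 14613 in the controls and 12426 to 17318 in the treated mice, and that of fibroblasts was 73930 and 67323 against 61686 to 91878. For both lists the treated mice lay on either side of the controls, with NT-3N 1 lowest and NT-3N 2 highest. Cebpd exceeded its control mean by 1.43, 2.00 and 1.76 log2 units in NT-3N mice 1, 2 and 3. The defining genes Adgre1, Csf1r and Cd68 of macrophages, and Pdgfra, Col1a1 and Col1a2 of fibroblasts, were well above background on all arrays, and the groups overlapped for each. Pdpn, a glycoprotein of fibroblasts and lymphatic vessels, had a log2 fold change of 1.49 (limma adjusted p = 0.0672), and the macrophage mannose receptor Mrc1 one of 0.53 (0.323). The 8 epithelial genes had a median of -0.07 (-0.11 without NT-3N 1), and none of them or of the T cell genes reached an unadjusted p of 0.05 in limma. All 6 smooth muscle genes had negative log2 fold changes, with a median of -0.28 (-0.18 without NT-3N 1) and an unadjusted limma p under 0.05 for 2 of them, and their summed signal was 445674 and 460166 in the controls and 326964 to 416455 in the treated mice. The 6 T cell genes had a median of 0.11, which was -0.044 without Control 2, -0.029 without NT-3N 1, 0.17 without NT-3N 2 and 0.18 without NT-3N 3. The 6 B cell genes had a median of 0.95, which was 2.13 without Control 1 and -0.16 without Control 2. Among them Ms4a1 (CD20) had a log2 fold change of 3.65 (limma adjusted p = 0.0595). The part of any of these cells in the C/EBP values was not tested.

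**Figure D4:**
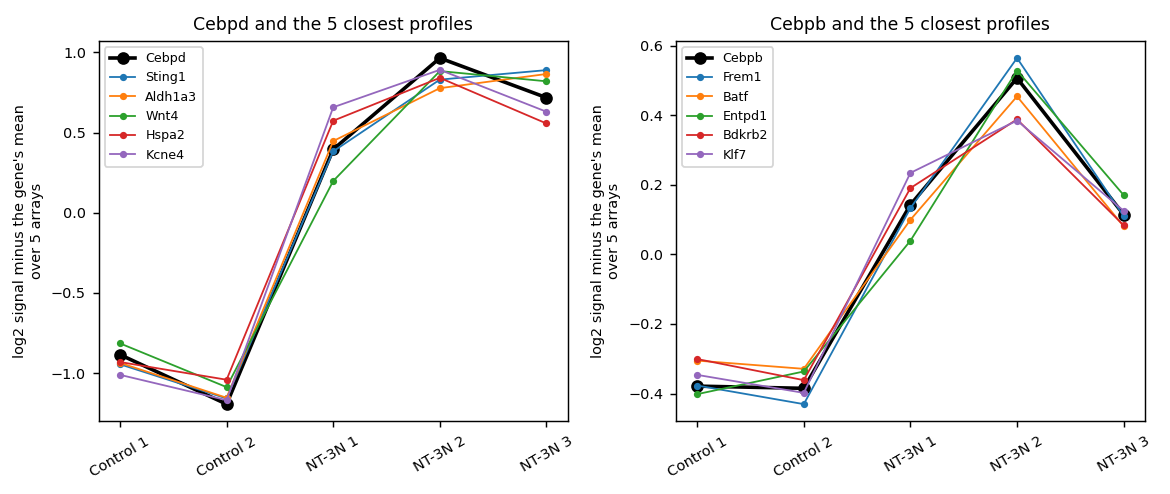
Profiles over the 5 arrays (x axis) of Cebpd (left) and Cebpb (right), in black, and of the 5 genes closest to each, as log2 signal minus the gene's own mean over the arrays (y axis). All profiles step up between the controls and the treated mice, and those on the right share a peak in NT-3N 2, as follows from the choice by closeness.

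The genes whose profiles over the 5 arrays were closest to those of Cebpd and Cebpb were found among 16733 named genes well above background on every array. Closeness was the root mean square difference of log2 values after each profile was centred on its own mean, and it is given as a description of 5 arrays that share the same 2 groups. For Cebpd these were Sting1, an adaptor of cytosolic DNA sensing (0.103 log2 units), Aldh1a3, an enzyme of retinoic acid synthesis (0.113), the WNT ligand Wnt4 (0.12), the heat shock protein Hspa2 (0.14) and the potassium channel subunit Kcne4 (0.14). Their log2 fold changes lay between 1.58 for Wnt4 and 1.82 for Kcne4, beside 1.73 for Cebpd. Sting1 had log2 signals of 10.09 and 9.88 in the controls and 11.42, 11.87 and 11.93 in the treated mice. For Cebpb they were Frem1, a basement membrane protein (0.0331), the AP-1 type factor Batf (0.0534), the ectonucleotidase Entpd1 (0.0586), the bradykinin receptor Bdkrb2 (0.0692) and the Krüppel-like factor Klf7 (0.0702). Batf had log2 signals of 7.21 and 7.18 in the controls and 7.61, 7.97 and 7.59 in the treated mice, and like Cebpb it was highest in NT-3N 2. The log2 fold change of Batf was 0.53 (limma adjusted p = 0.394), beside 0.64 for Cebpb. As these genes were chosen by closeness, shared peaks and changes of like size follow from the choice.

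**Figure D5:**
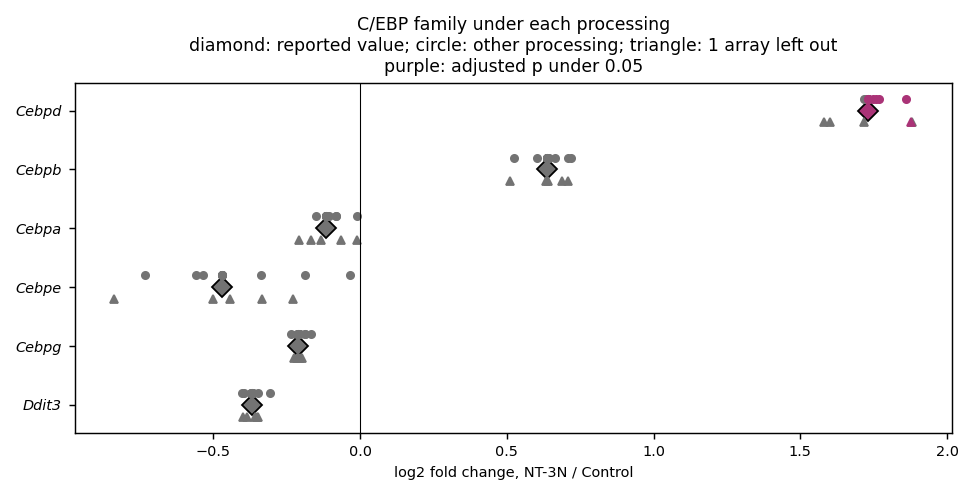
log2 fold changes (x axis) of the 6 C/EBP genes as reported (diamonds), under other processing (circles) and with 1 array left out (triangles), with purple for an adjusted p under 0.05. No gene changed sign, Cebpd stayed between 1.58 and 1.88, and Cebpe moved most, from -0.84 to -0.036.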

How the data were processed

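Total RNA of whole colon was labelled with Cy3 and hybridised to SurePrint G3 mouse arrays. The authors extracted spot intensities with Agilent Feature Extraction (v11.0.1.1), and the deposited scanner files hold processed, median and background intensities and detection flags. The deposited table of log2 values, in which the authors kept 37380 probes, quantile scaled, correlated with the values used here at 0.99998 or more, and served as an alternative.

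log2 processed signals were averaged over spots of a probe without outlier flags and quantile normalized. Probes well above background on at least 2 arrays were kept, with values in both controls and at least 2 treated mice. Probes were named through RefSeq accessions, which gave 17942 named genes, and the brightest probe stood for a gene. Groups were compared with limma (v3.58.1, R v4.3.3) with an intensity trend and Benjamini-Hochberg adjustment over 32917 features at 0.05, in place of the methods' local-pooled-error test, which was an alternative. The script was tested on simulated data. Other alternatives were scaling, background correction, filters, variance models, treatment of probes, and leaving out each array.

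The genes and lists were chosen with earlier results of these data known. From each list, genes with a limma adjusted p under 0.05 were named, then the 3 largest differences with an unadjusted p under 0.05, and the first 3 markers of cell type lists. Some genes of the lists are not reported here. Il11ra1, Atf4, Saa1, Saa2 and Mpo were added after their values were seen, and so was the choice to count and take medians of the acute phase and granulocyte lists over genes above background in both groups. The labels give separate samples, and the study's methods give 1 mouse for each, but 2 and 3 arrays limit the precision.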

Additional observations from a re-analysis of the deposited data

How the results depend on the processing

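No C/EBP gene changed sign under the alternatives that gave it a value, and none but Cebpd was called in any of them. Cebpd was called in 11 of 18. With dim probes kept or without the intensity trend its log2 fold change was 1.73, past the threshold in neither, and with 1 array left out it lay between 1.58 and 1.88. Replicate numbers are shared between the groups, but deviations from the group means correlated at only 0.128 for number 1 and 0.0357 for number 2, so the numbers were not taken as pairs. With the number as a replicate block the log2 fold change of Cebpd was 1.72 (limma adjusted p = 0.529). In that fit 0 features were called higher and 0 lower, with 2488 at an unadjusted p under 0.05 (limma). No control shares the number of NT-3N 3, so this mouse added nothing to the group differences of that fit. It therefore compares fewer mice than the reported fit, and pairing and the loss of a mouse cannot be told apart in it. The block also ended the calls of Socs3, Osmr, Stat3, Serpina3n and Lbp, at limma adjusted p-values from 0.346 to 0.491. Cebpe had no value in the deposited table or when probes had to be above background on all arrays.

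The numbers of features called higher and lower, 41 and 6 as reported, were 2 and 0 with dim probes kept (3941 at an unadjusted p under 0.05, limma) and 2 and 0 without the trend (3075). They were 128 and 48 with array weights and 213 and 167 with the local-pooled-error test. The count called lower was 11 with the deposited values, 13 when every array had to be above background, 15 with robust variance and 12 with every probe tested. With 1 array left out, 0 to 112 were called higher and 0 to 16 lower. The median log2 fold change of the C/EBP regulators was 0.0085 under median scaling. Where a call was lost the cause was not tested.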
